A study of Mus musculus with 15 samples.

Results

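The subject of these results is the combined deletion of the α-globin enhancer elements R2 and R3, compared with control cells through the contacts of promoters in mouse erythroid cultures. The members are 3 R2R3_KO samples and 3 control samples of 15 samples in all, taken by their labels, and a further 3 samples lacking R1 and R2 (R1R2_KO) are used for 1 comparison. In R2R3_KO cells R2 and R3 are deleted and R1, Rm and R4 remain; control cells carry all of these elements. Whether the deletions were on both chromosome copies is not stated in the labels. All of these samples carry the strain label F1 C57Bl6/CBA and come from fetal livers taken at E12.5, whose cells were grown in culture, freed of Ter119-positive (mature red) cells and allowed to differentiate for 18 hours. The labels do not say how many embryos make up a sample, and with no marker expression in these files the cell type rests on the labels alone. The labels call the replicates biological but do not say what separates them, so p-values here reflect only how far these samples vary, which may be technical.

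Red cell precursors make large amounts of α-globin, and the adult α-globin genes depend on a group of enhancer elements on one side of them, several of which lie inside the introns of the neighbouring gene Nprl3. During differentiation these elements come into frequent contact with the α-globin promoters. Such contacts are measured by NG Capture-C, in which cross-linked chromatin is cut with the enzyme DpnII, nearby ends are ligated, and the joined fragments that hold a chosen promoter are captured and sequenced. A promoter that is captured in this way is called a viewpoint. The 3 viewpoints were the α-globin promoters (Hba), the adult β-globin promoters (Hbb), which are served by their own upstream locus control region, and the promoter of Slc25a37, which encodes an iron carrier of the inner mitochondrial membrane that supplies haem synthesis. The deleted elements belong to the α-globin genes, so Hbb and Slc25a37, on other chromosomes, show how far the same libraries changed where no element was deleted.

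The Hba viewpoint joins 2 gene copies. The 250 bases before the start of each gene (RefSeq, GRCm38.p6, plus strand; Hba-a1 at chr11:32283422-32283671 and Hba-a2 at chr11:32296242-32296491) are shown because they are the promoters whose contacts are counted, with the motif GATAAG, the sequence bound by GATA factors, in capitals.
Hba-a1: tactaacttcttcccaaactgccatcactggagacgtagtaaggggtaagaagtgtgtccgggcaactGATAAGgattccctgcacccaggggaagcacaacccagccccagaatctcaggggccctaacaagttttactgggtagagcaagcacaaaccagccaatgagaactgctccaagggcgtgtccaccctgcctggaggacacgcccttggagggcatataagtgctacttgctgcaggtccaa
Hba-a2: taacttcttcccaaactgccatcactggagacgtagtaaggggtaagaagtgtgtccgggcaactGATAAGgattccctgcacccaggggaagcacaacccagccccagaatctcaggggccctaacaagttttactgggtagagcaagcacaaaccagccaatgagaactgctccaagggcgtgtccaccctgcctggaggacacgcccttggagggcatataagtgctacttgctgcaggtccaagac
Shifted by 3 bases, the windows were identical over all 247 overlapping bases, so contacts of the copies cannot be told apart from this sequence. Each held 1 GATAAG, found on either strand (as GATAAG or CTTATC) in 6.6% of the same window of 27025 mouse genes, and neither held GATC, the DpnII site, which 42% of the windows held on either strand.

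At Hba the R2R3_KO libraries had 70337 to 91121 reads, against 112875 to 138216 in control. At Hbb they had 46959 to 60221 reads, against 95471 to 99096, and at Slc25a37 they had 18212 to 22484, against 28636 to 47852. The R2R3_KO libraries were thus the shallower ones at each viewpoint, and their levels the less precise. Levels below are reads per 100000 reads on the viewpoint chromosome that lay more than 2 kb from the viewpoint, all coordinates outside the promoter windows above are mm9, and n = 3 in each group. The column headers number the R2R3_KO libraries 1 to 3 and the control libraries 4 to 6, with 1 to 3 also used for R1R2_KO. If these numbers mark separate sequencing runs, run and genotype cannot be told apart in anything that follows.

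Nearly all reads at the 2 deleted elements were missing in R2R3_KO. This follows from the deletion itself, so it checks the labels and is not a result about contact. The R2 block, 1614 bp at chr11:32150268-32151881, had 201.8, 214.8 and 216.3 reads per 100000 in R2R3_KO, against 1837, 2239 and 2191 in control. The R3 block, 1382 bp at chr11:32155867-32157248, had 115.6, 145.1 and 81.7 in R2R3_KO, against 1342, 1368 and 1394 in control. R2R3_KO libraries therefore kept 10.1% of the control mean at R2 and 8.34% at R3, and every R2R3_KO library lay far below every control library. The block limits come from the single deletions of R2 and R3, each 1 library, and not from the libraries compared here.

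The remaining reads sat at the block ends. In R2 the middle fragment (chr11:32150623-32151061) had 0 reads in all 3 R2R3_KO libraries, against 463, 540 and 537 reads in control, which makes it at least 349-fold lower when 3 reads over the group are taken as the limit that a count of 0 allows. The fragment after it (chr11:32151062-32151881) had 2, 3 and 3 reads, against 541, 569 and 579. The first fragment of the block (chr11:32150268-32150622) kept 108, 111 and 87 reads, 33.1% of its control level. Where within a fragment a deletion ends cannot be read from counts per fragment. In R3 the 2 middle fragments (chr11:32156382-32156487 and chr11:32156488-32156889) had 0 reads in every R2R3_KO library and were at least 97.1-fold and 216-fold lower than control. The outer R3 fragments kept 20% (chr11:32155867-32156381) and 9.38% (chr11:32156890-32157248) of control. These limits and folds cover counting error only, and PCR reads without molecular identifiers are not independent molecules. The 7 fragments of both blocks stay out of every test below.

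The R2R3_KO libraries differed from control at all 3 viewpoints, and in a like way: contacts close to the viewpoint took a smaller share of the reads and contacts far from it a larger one. In the class 20 to 50 kb from the viewpoint, the log2 share relative to the control mean was -0.36, -0.41 and -0.38 in the R2R3_KO libraries at Hba, against -0.01, 0.01 and 0.00 in control. At Hbb the same class was at -0.26, -0.43 and -0.39 in R2R3_KO, against -0.10, 0.02 and 0.08 in control. At Slc25a37 it was at -0.35, -0.41 and -0.36 in R2R3_KO, against -0.08, 0.07 and 0.01 in control. This class spans R1, R2 and R3 at Hba and the locus control region at Hbb, but the deleted blocks are left out of the Hba classes. Outside the blocks, the 3 viewpoints thus lost nearly equal proportions in it. The R2 and R3 blocks themselves held 2.09% and 1.37% of Hba reads in control, against 0.211% and 0.114% in R2R3_KO.

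Of 10 distance classes, all 4 within 50 kb were lower in R2R3_KO than in control at each viewpoint without overlap of the libraries. Beyond 50 kb, 6 classes at Hba, 5 at Hbb and 6 at Slc25a37 were higher without overlap, the exception being 50 to 100 kb at Hbb (log2 change -0.10, exact permutation p = 0.3). The exact two-sided permutation p of each separated class was 0.1, the smallest that 3 against 3 libraries can give. Reads over 5 Mb away made up 29% ± 0.602 (SD) of Hba chromosome reads in R2R3_KO and 21.3% ± 2.14 in control. For Hbb this share was 35.2% ± 1.71 in R2R3_KO and 27.7% ± 3.1 in control, and for Slc25a37 it was 32.1% ± 1.01 and 24.1% ± 2.48. The innermost reads moved the same way: the share of all reads within 2 kb of the viewpoint was 5.04% ± 0.151 in R2R3_KO and 6.93% ± 1.07 in control at Hba. It was 2.85% ± 0.4 in R2R3_KO and 5.37% ± 0.876 in control for Hbb, and for Slc25a37 it was 2.98% ± 0.107 and 5.2% ± 0.523. These groups did not overlap either (exact permutation p = 0.1 each).

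**Figure D1:**
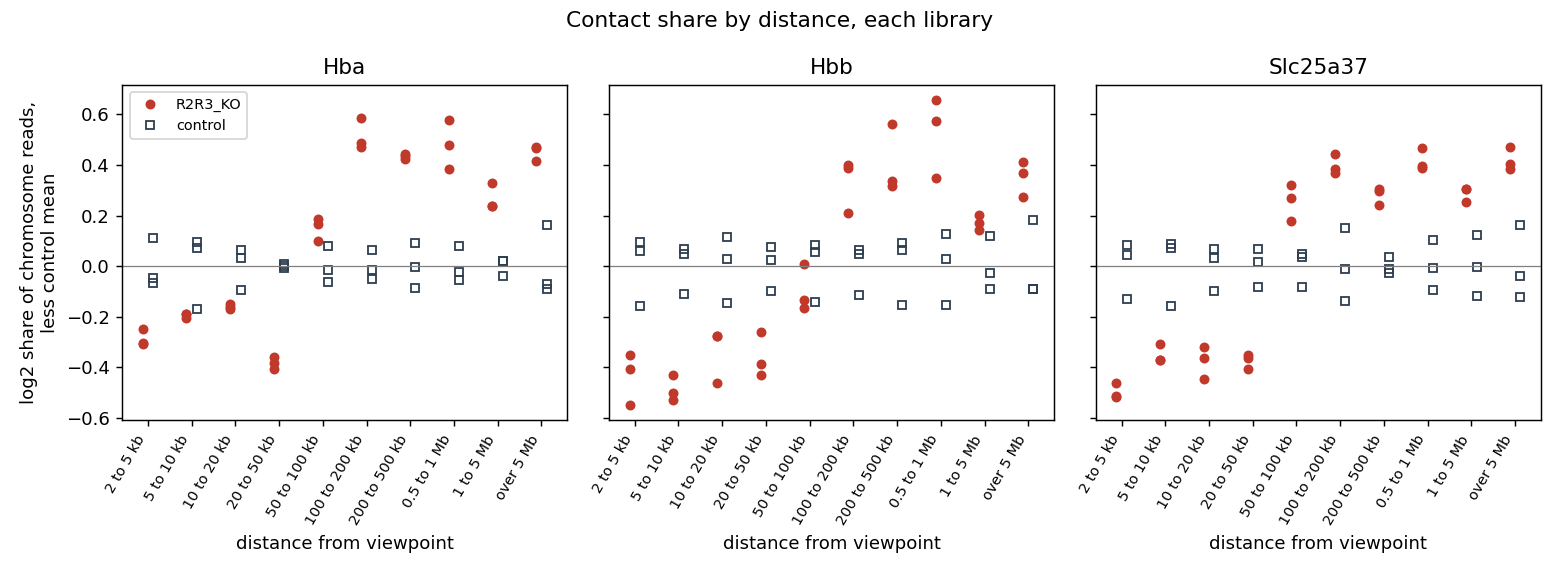
Log2 share of viewpoint-chromosome reads in each distance class, less the control mean, for each library (red circles R2R3_KO, open squares control), at Hba, Hbb and Slc25a37. The deleted R2 and R3 blocks are left out of the Hba classes. At each viewpoint all R2R3_KO libraries lie below control in the 4 classes within 50 kb, and above control in every class beyond 100 kb.

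Reads on other chromosomes did not separate the groups. At Hba they were 35.2%, 35.6% and 35.9% of reads in R2R3_KO, against 38.9%, 32.9% and 28% in control (exact permutation p = 0.7), and at Hbb 42.9%, 42.2% and 44.5%, against 43.2%, 35% and 30.7% (p = 0.3, exact permutation test). Slc25a37 gave 34.7%, 35.4% and 33.6% in R2R3_KO, against 38%, 31% and 29.7% in control (exact permutation p = 0.5). Control library 1 stood apart from the other controls, with the largest share of the 3 controls on other chromosomes and over 5 Mb away at each viewpoint. Without it the change common to the other viewpoints, described next, was -0.41 at 20 to 50 kb and 0.47 beyond 5 Mb.

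The change common to the viewpoints was written as the mean of the Hbb and Slc25a37 log2 deviations in each class and library, with Hba left out. It was -0.47 at 2 to 5 kb, -0.42 at 5 to 10 kb, -0.36 at 10 to 20 kb and -0.37 at 20 to 50 kb as the mean of the R2R3_KO libraries, then 0.08 at 50 to 100 kb, 0.37 at 100 to 200 kb and 0.39 beyond 5 Mb. Library by library, the 20 to 50 kb value was -0.31, -0.42 and -0.37 in R2R3_KO, against -0.09, 0.04 and 0.04 in control. Because shares of one total are compared, a fall near the viewpoint and a rise far from it are 2 sides of the same measurement. When only reads over 500 kb away set the scale, a setting added after seeing the data, the median shift on the log2 scale was -0.43 over the Hba regions, -0.32 over those of Hbb and -0.39 over those of Slc25a37.

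Measured on its own, the α-globin viewpoint lost contact with its enhancer cluster, and the other viewpoints lost contact with their main partners to the same degree. The cluster without the deleted blocks (chr11:32139865-32170701) had 17848, 17526 and 17549 reads per 100000 in R2R3_KO, against 22605, 23511 and 23836 in control, and changed by -0.40 in log2 (SE 0.04, edgeR adjusted p = 4.12e-05). The Hbb locus control region (chr7:111003150-111023773) had 16761, 14888 and 15578 in R2R3_KO, against 19706, 21213 and 22374 in control (-0.42, SE 0.06, edgeR adjusted p = 0.000345). The upstream region of Slc25a37 (chr14:69906474-69959889) had 28436, 27314 and 28606 in R2R3_KO, against 34623, 40645 and 39583 in control (-0.44, SE 0.06, edgeR adjusted p = 0.000327). In none of the 3 regions did the groups overlap. Over all 23 regions and intervals tested in this fit, some of them nested, 69.6% passed 0.05, 12 lower (52.2%) and 4 higher (17.4%).

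Other falls away from the α-globin locus were of the same order. At Hbb the adult genes averaged 6771 ± 445 in R2R3_KO and 9214 ± 701 in control (log2 change -0.44), and the embryonic genes, which are active in the earlier embryonic red cells, averaged 6603 ± 540 and 8256 ± 643 (-0.32). Among the α-globin genes themselves the level was 19212 ± 388 in R2R3_KO and 23245 ± 1567 in control (-0.27), and over the body of Slc25a37 it was 13907 ± 193 and 16986 ± 266 (-0.29; edgeR adjusted p = 0.00484 or less for these 4). The regions that rose were far from their viewpoints. Hba far upstream (chr11:31949955-32079920) had 1874 ± 62.3 in R2R3_KO and 1303 ± 77.1 in control, a log2 change of 0.53, and the outer regions on the 2 sides of Slc25a37 changed by 0.35 and 0.31 (edgeR adjusted p = 0.00112 or less). The fourth, the upstream genes at Hba (0.12, edgeR adjusted p = 0.0456), lost its call when libraries 1 or 3 of either genotype were left out. The first 3 rises lost their calls, at 0.10, -0.04 and -0.07, when reads over 500 kb away set the scale.

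Inside the enhancer cluster the fall was uneven. The interval between R1 and R2 (chr11:32146567-32150267) had 2663, 2358 and 2493 reads per 100000 in R2R3_KO, against 4197, 4443 and 4322 in control, and changed by -0.79 in log2 (SE 0.06, edgeR adjusted p = 6.47e-06). The interval between R2 and R3 (chr11:32151882-32155866), which lies between the 2 deletions, had 2471, 2467 and 2396 in R2R3_KO, against 4117, 4167 and 4171 in control (-0.76, SE 0.04, edgeR adjusted p = 1.5e-06). These stretches kept 58% and 58.9% of their control contact, while R1 (chr11:32144385-32146566), with 871.2, 768.9 and 817.2 in R2R3_KO, against 1078, 1066 and 1104 in control, kept 75.7% (-0.40, edgeR adjusted p = 0.000327). Towards the genes the interval from R3 to Rm changed by -0.37 (edgeR adjusted p = 0.000118).

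The elements nearest the genes kept more of their contact. Rm (chr11:32164968-32166169) had 1154, 1357 and 1236 reads per 100000 in R2R3_KO, against 1198, 1209 and 1320 in control, and the groups overlapped (log2 change 0.01, SE 0.07, edgeR adjusted p = 0.914), although Rm was lower, at -0.42, with reads over 500 kb away as the scale. R4 (chr11:32168682-32169921) had 1887, 1873 and 1870 in R2R3_KO, against 1843, 2375 and 2409 in control (-0.23, SE 0.10, edgeR adjusted p = 0.0597); control library 1 lay below all R2R3_KO libraries, and without it the change was -0.35 and passed. The stretch from the cluster's outer edge to R1 and the one from Rm to R4 overlapped between groups too, at -0.07 and -0.10. Without R2R3_KO library 2 the Rm to R4 stretch passed, at -0.16, and with the deleted blocks left out of the scale both it (-0.15) and R4 (-0.28) passed.

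**Figure D2:**
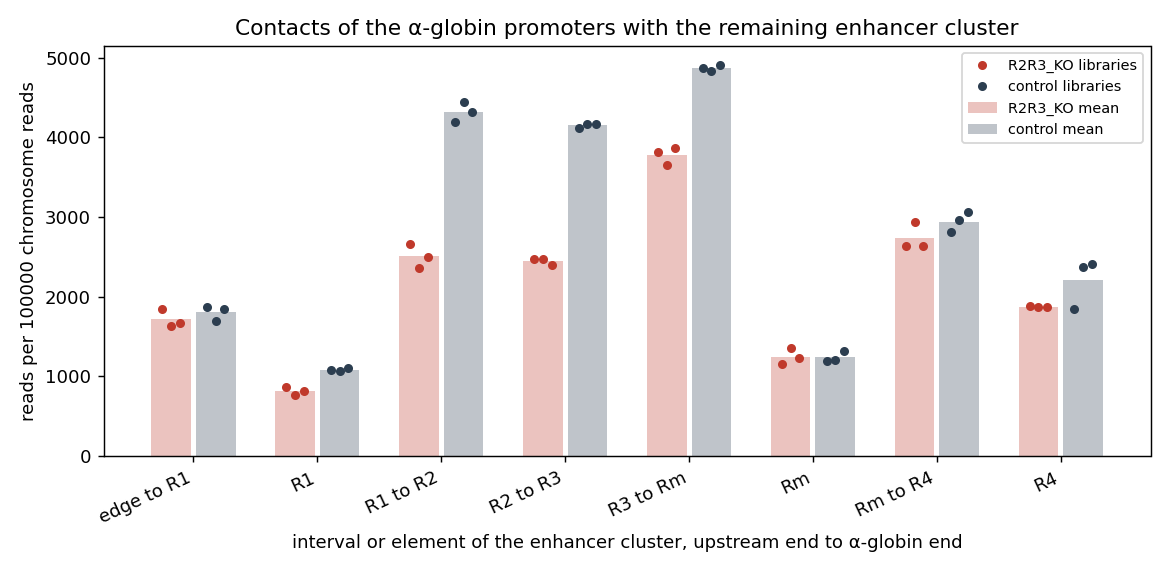
Reads per 100000 chromosome reads at the α-globin viewpoint for each remaining interval and element of the enhancer cluster (bars are means from 0, points the 3 libraries, red R2R3_KO, dark blue control). R2R3_KO libraries lie at 2358 to 2663 between R1 and R2, against 4197 to 4443 in control, and both groups overlap at Rm.

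To separate what was particular to α-globin, the shared change of each library was taken from the Hba value of the same library at the same distances. Over the whole remaining cluster nothing measurable was left: the specific log2 values were -0.07, 0.02 and -0.06 in R2R3_KO, against 0.06, -0.04 and -0.01 in control, with an edgeR specific change of -0.04 (SE 0.04, adjusted p = 0.429) and an exact permutation p of 0.5. Of the observed log2 change of -0.40, -0.36 was the value expected from the other viewpoints. The sum holds parts that moved in opposite directions, which are described next. With reads within 500 kb as the scale the cluster passed as a fall, at -0.09, with reads over 500 kb away it was at -0.11 (edgeR adjusted p = 0.111), and it changed sign at 0.01 with reads of all chromosomes and at 0.02 when matched on contact density.

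An α-globin specific loss was found in the intervals from R1 to R2 and from R2 to R3, and not from R3 to Rm, which also borders a deletion. Between R1 and R2 the specific values were -0.39, -0.46 and -0.42 in R2R3_KO, against 0.05, 0.00 and -0.04 in control (edgeR specific change -0.42, SE 0.05, adjusted p = 1.63e-05). Between R2 and R3 they were -0.44, -0.33 and -0.42, against 0.08, -0.04 and -0.04 (-0.40, SE 0.06, edgeR adjusted p = 2.49e-05). In both intervals every R2R3_KO library lay below every control library, and exact permutation gave its smallest p, 0.1. Both kept their call with Hbb alone, with Slc25a37 alone and with each library left out, and they were larger, at -0.49 and -0.47, with reads over 500 kb away as the scale. Of the 14 Hba regions and intervals tested, 64.3% passed in this fit, 14.3% lower, which are these 2 intervals, and 50% higher.

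R1 and the stretch after R3 showed no specific change beyond the replicate spread. R1 was at -0.01, -0.07 and -0.03 in R2R3_KO, against 0.08, -0.07 and -0.02 in control (edgeR specific change -0.04, SE 0.07, adjusted p = 0.618), and R3 to Rm was at 0.00 (SE 0.06, adjusted p = 0.946). Their groups overlapped (exact permutation p = 0.6 and 0.9).

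Several stretches lay above the value expected from the shared change. Rm had specific values of 0.22, 0.58 and 0.29 in R2R3_KO, against 0.07, -0.11 and 0.04 in control (0.37, SE 0.09, edgeR adjusted p = 0.00147), with library 2 well above the other R2R3_KO libraries; without it the change was 0.25 (largest adjusted p over the libraries left out, 0.0225). The outer edge of the cluster (chr11:32135980-32139864) was at 0.35, 0.41 and 0.41, against -0.02, 0.05 and -0.03 in control (0.39, edgeR adjusted p = 2.52e-05). The region downstream of the genes (chr11:32204980-32320310) was at 0.30, 0.42 and 0.42 in R2R3_KO, against 0.07, 0.01 and -0.08 (0.38, edgeR adjusted p = 2.49e-05), and the stretch from the edge to R1 at 0.34, 0.28 and 0.27, against 0.14, -0.13 and -0.01 (0.29, edgeR adjusted p = 0.00184). On the plain scale none of these 4 had passed the test, so their specific rise is a plain value near 0 set against an expected fall of -0.37 to -0.30. All 4 kept their call with reads over 500 kb away as the scale, at 0.30, 0.32, 0.31 and 0.22. Matched on contact density, which does not use the distance classes, all 4 passed as well, with the downstream region smaller, at 0.21, and Rm larger, at 0.51. By distance the expected value steps from -0.37 at 20 to 50 kb to 0.08 at 50 to 100 kb. The size of a specific rise just inside 50 kb, as at the cluster edge, therefore depends on where the class ends. Adjoining fragments on either side of that limit had specific values of 0.46 and -0.000883, with plain changes of 0.10 and 0.08.

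Other specific rises were less firm. The α-globin genes gave 0.17 (SE 0.04, edgeR adjusted p = 0.00147), Rm to R4 gave 0.26 (adjusted p = 0.00622) and the far upstream region 0.16 (adjusted p = 0.0234), but with reads over 500 kb away as the scale they were 0.10, 0.19 and 0.09 and no longer passed (edgeR adjusted p = 0.111, 0.111 and 0.184). Rm to R4 also lost its call without R2R3_KO library 2 (0.15, edgeR adjusted p = 0.0573). The far upstream region lost it without R2R3_KO library 1 (0.14), R2R3_KO library 3 (0.17) or control library 2 (0.16). R4 (0.13, adjusted p = 0.11) and the upstream genes (0.07, adjusted p = 0.196) did not pass, but both did when the shared change was matched on contact density, a setting added after seeing the data, at 0.27 and 0.18 (edgeR adjusted p = 0.00166 and 0.00313). Rm to R4 was then at 0.40. The genes on this flank, in their GRCm38.p6 order, are Il9r, Snrnp25, Rhbdf1, Mpg and Nprl3.

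**Figure D3:**
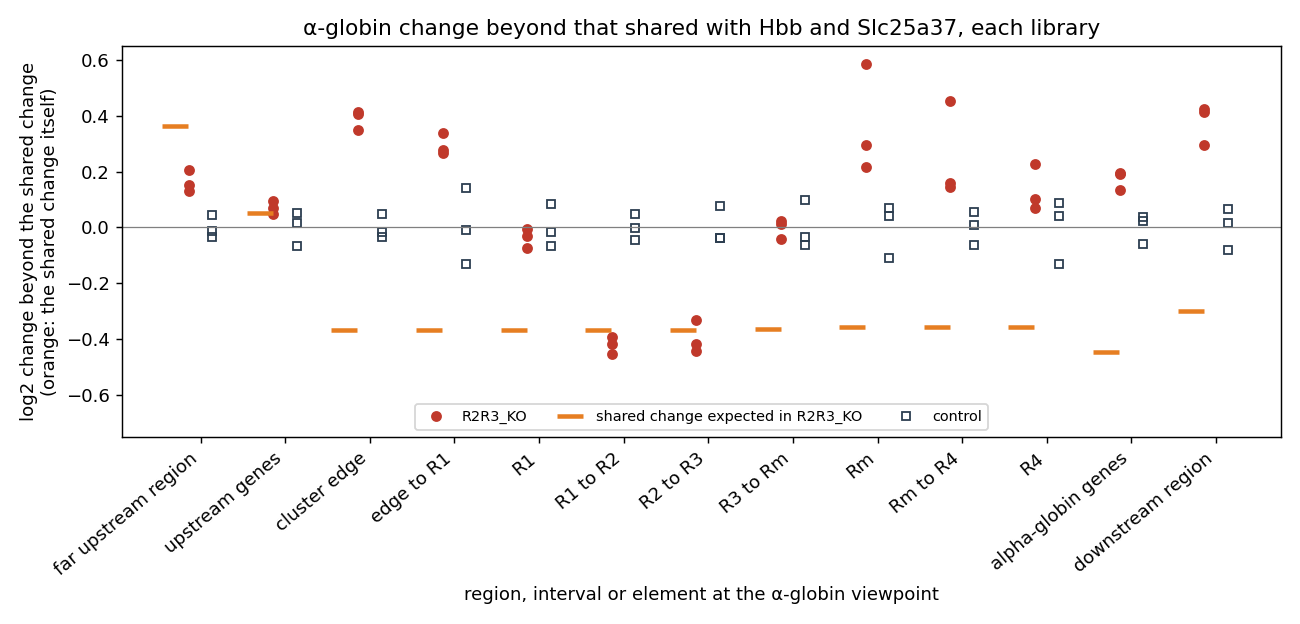
Log2 change beyond the shared change at the α-globin viewpoint for each library (red circles R2R3_KO, open squares control), with the shared change expected in R2R3_KO from the other viewpoints as orange bars. The R2R3_KO libraries lie at -0.46 to -0.33 in the intervals on both sides of R2, near 0 at R1 and from R3 to Rm, and above all control libraries at the cluster edge, Rm and downstream.

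By distance alone, and with the deleted blocks in the scale, Hba lay above the shared change in 6 of the 10 classes without overlap of the libraries. The Hba deviation less the shared change averaged 0.18 at 2 to 5 kb, 0.22 at 5 to 10 kb and 0.20 at 10 to 20 kb over the R2R3_KO libraries, with each of these above every control library (exact permutation p = 0.1). The excess was 0.07 at 50 to 100 kb, 0.15 at 100 to 200 kb and 0.07 beyond 5 Mb, again above every control library (exact permutation p = 0.1). At 50 to 100 kb Hbb and Slc25a37 moved in opposite directions, at -0.10 and 0.26, and Hba lay between them at 0.15. Beyond 5 Mb Hba was at 0.45, against 0.35 at Hbb and 0.42 at Slc25a37. The Hba scale includes the deleted blocks, and leaving them out shifted the Hba regions by a median of -0.046 in log2. The lowest R2R3_KO library was at 0.045 at 50 to 100 kb and 0.0514 beyond 5 Mb, against highest controls of 0.0322 and 0.0155. At 2 to 5 kb these were 0.104 and 0.0771, and at 100 to 200 kb 0.0932 and 0.0494. A shift of -0.046 would make the groups overlap at 2 to 5 kb, 50 to 100 kb and beyond 5 Mb. It would leave them nearly level at 100 to 200 kb, so the separation in these classes depends on the scale. The classes were not recomputed without the blocks. The 20 to 50 kb class holds both intervals that fell, with the deleted blocks left out. There the Hba deviation less the shared change averaged -0.02 and ranged from -0.05 to 0.01, against -0.04 to 0.08 in control (exact permutation p = 0.8).

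At single DpnII fragments, 62 of 378 tested Hba fragments within 500 kb passed 0.05 (16.4%), 53 lower (14%) and 9 higher (2.38%) in R2R3_KO, by edgeR adjusted over all 942 fragments. Of 353 Hbb fragments 70 were lower (19.8%) and 1 higher (0.283%), and of 211 at Slc25a37 36 were lower (17.1%) and 1 higher (0.474%), which makes 20.1% and 17.5% in all. Over all viewpoints 16.9% were lower and 1.17% higher. The order of the viewpoints in these shares is not stable: DESeq2 called 36 fragments at Hba, 6 at Hbb and 0 at Slc25a37, where edgeR found 70 with an unadjusted p under 0.05. The DESeq2 run set its own scale from the tested fragments of each viewpoint and adjusted within each viewpoint. Tool, scale and adjustment thus changed together. Within the cluster 33 of 63 fragments fell, including all 10 tested between R1 and R2 and all 10 between R2 and R3, and 19 of 54 fell among the α-globin genes. In the Hbb locus control region, where nothing was deleted, 27 of 46 fell, and in the upstream region of Slc25a37 31 of 124 did. These counts rest on few libraries: the Hba count was 35 without R2R3_KO library 2, 38 without R2R3_KO library 3 and 38 without control library 3. The Hbb count was 31, 39, 43 and 32 without R2R3_KO libraries 2 and 3 and control libraries 2 and 3, and the Slc25a37 count was 21 without R2R3_KO library 1 or 2 and 15 without control library 2 or 3. Reads within 500 kb as the scale split the Hba calls into 23 higher and 21 lower, and reads over 500 kb away gave 127 lower and none higher.

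After the shared change was taken out, 28 of the 378 Hba fragments passed (7.41%), 10 lower (2.65%) and 18 higher (4.76%), and the median over all tested fragments was 0.16. The 10 lower fragments were 4 of the 10 between R1 and R2 and 6 of the 10 between R2 and R3; no fragment elsewhere was lower. All 10 were also called as lower with reads over 500 kb away as the scale, whereas 8 of the 18 higher ones kept their call. Matched on contact density, 8 of the 10 lower and 15 of the 18 higher ones kept theirs. Without R2R3_KO library 3 the count dropped to 6 (2 lower and 4 higher), and without control library 3 to 17 (6 and 11).

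Of the 10 called fragments, the one with the deepest specific fall lay between R1 and R2, at chr11:32148396-32148902. It had 159.6, 218.6 and 134.6 reads per 100000 in R2R3_KO, against 488.7, 404 and 321.2 in control, a plain log2 change of -1.23 and a specific change of -0.87 (SE 0.18, edgeR adjusted p = 0.00321). It does not touch a deleted block: the nearest deleted fragment begins more than 1 kb further on. Between the deletions, chr11:32153557-32153935 had 132.1, 147 and 189.9 in R2R3_KO, against 368.2, 326 and 299.1 in control (specific change -0.74, SE 0.16, edgeR adjusted p = 0.00419). Neither pair of groups overlapped.

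The fragments that touch the blocks were lower too. Just outside R2 on the R1 side, chr11:32150164-32150267 had 245.8, 188.5 and 139.4 reads per 100000 in R2R3_KO, against 400.9, 479.2 and 366.9 in control (specific change -0.74, SE 0.16, edgeR adjusted p = 0.00321). On the other side of R2, chr11:32151882-32152404 had 390.7, 380.7 and 370.2 in R2R3_KO, against 628.9, 677.1 and 641.1 in control (-0.40, SE 0.11, edgeR adjusted p = 0.0244). At R3 the 2 fragments on the R2 side gave specific changes of -0.64 and -0.41 (edgeR adjusted p = 0.00342 and 0.0368), while those on the gene side, chr11:32157249-32157269 and chr11:32157270-32157619, gave -0.54 and -0.16 and did not pass (edgeR adjusted p = 0.209 and 0.463). In the single deletion of R2, 1 library, the 2 fragments before the R2 block were at 77.7% and 77.3% of the mean of the other single deletions. Whether either deletion reaches into these fragments was not tested.

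The higher fragments were spread over the rest of the locus: 5 in the cluster, 2 at its outer edge, 6 among the α-globin genes, 4 downstream and 1 among the upstream genes. The last of these lies 48.2 kb from the viewpoint, just inside the 50 kb class limit. Between Rm and R4, chr11:32167110-32167265 had 198.1, 343 and 238 reads per 100000 in R2R3_KO, against 190, 193.6 and 202.2 in control (specific change 0.78, SE 0.18, edgeR adjusted p = 0.00427), with R2R3_KO library 1 inside the control range. Between the 2 α-globin genes, chr11:32187832-32187969 had 359.5, 429.7 and 375 in R2R3_KO, against 323.6, 294 and 387.7 in control (0.67, SE 0.13, edgeR adjusted p = 0.00321), and here the plain levels of the groups overlap. No fragment that rose in the specific fit was among the 9 that rose on the plain scale.

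**Figure D4:**
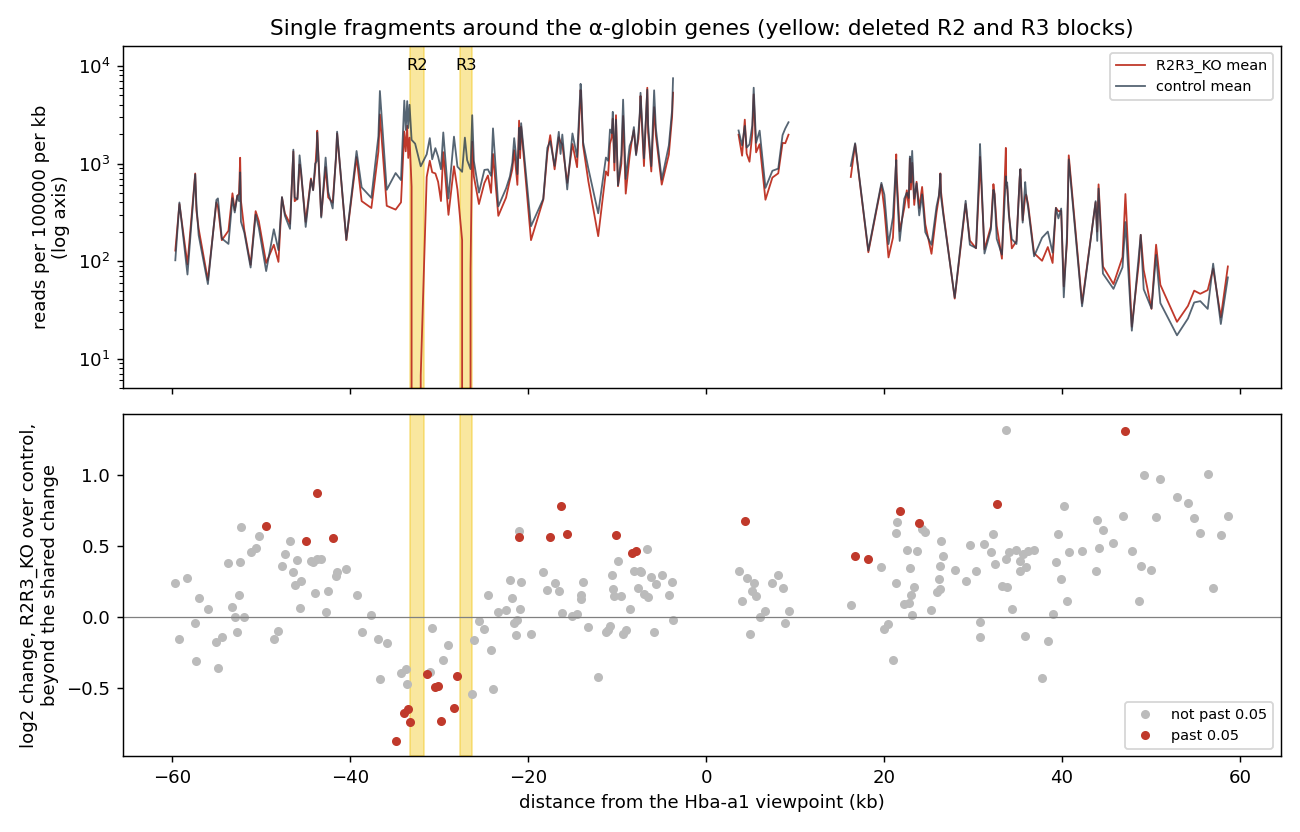
Above, mean reads per 100000 chromosome reads per kb of fragment (log axis, fragments with at least 60 reads and those of the deleted blocks; values of 0 fall below the axis) against distance from the Hba-a1 viewpoint, red R2R3_KO and dark blue control. Below, the specific log2 change of each tested fragment, with those past 0.05 in red: the 10 lower ones lie on both sides of R2 up to R3, and the 18 higher ones lie outside this stretch.

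At the other viewpoints single fragments fell as far. The 3 lowest changed by -1.46 to -1.23 at Hbb and by -1.61 to -1.25 at Slc25a37. The lowest of each rested on few reads. At Hbb it had 4, 4 and 4 reads in R2R3_KO, against 6, 17 and 42 in control (SE 0.545). At Slc25a37 it had 8, 2 and 7 reads, against 52, 26 and 14 (SE 0.445). At Hbb, chr7:110965645-110965893 near the adult genes had 104.1, 81.3 and 68.4 reads per 100000 in R2R3_KO, against 144.3, 229.9 and 251.7 in control (log2 change -1.29, SE 0.23, edgeR adjusted p = 1.6e-05). At Slc25a37, chr14:69937333-69937682 in the upstream region had 213.8, 98.2 and 234.2 in R2R3_KO, against 403.9, 470.4 and 426.3 in control (-1.25, SE 0.25, edgeR adjusted p = 6.62e-05). The deepest plain fall at Hba outside the blocks was -1.23 (SE 0.159), with 87, 116 and 56 reads in R2R3_KO, against 373, 290 and 232 in control. What lies behind the single-fragment falls at any viewpoint was not tested.

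The specific values differed from those of the other double deletion, in which R1 and R2 are missing and R3, Rm and R4 remain; both sets are measured from the same controls. Over the remaining cluster R2R3_KO had -0.07, 0.02 and -0.06, against -0.57, -0.62 and -0.65 in R1R2_KO, a difference of 0.58 in log2. At Rm the values were 0.22, 0.58 and 0.29 in R2R3_KO, against -0.37, -0.33 and -0.47 in R1R2_KO (difference 0.76), and at R4 they were 0.10, 0.23 and 0.07, against -0.56, -0.68 and -0.66 (difference 0.77). The interval between R1 and R2, next to deletions in both genotypes, was at -0.422 ± 0.0323 in R2R3_KO and -0.998 ± 0.0252 in R1R2_KO (SD). Of 14 regions compared, 13 were separated without overlap and reached the smallest exact permutation p of 0.1 (adjusted 0.108), which the design cannot pass. They include R1, which is deleted in R1R2_KO so that its separation follows from the genotype, and the cluster sum that contains it. The exception was the downstream region, with a difference of 0.00.

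The cluster sum includes R1, which R1R2_KO cells lack and which held 1083 of the 23317 reads per 100000 of the remaining cluster in control, so part of the cluster difference is the deletion of R1 itself. R1R2_KO library 1 stands apart at Hbb, where its counts differ from those of libraries 2 and 3 by a chi-square per degree of freedom of 6.99 and 6.38, against 1.00 to 2.02 among the R2R3_KO libraries over the 3 viewpoints. With each of the 9 libraries left out in turn, the cluster difference ran from 0.55 to 0.60. With reads over 500 kb away as the scale the cluster difference was 0.84, the far upstream difference went to 0.00 (against -0.26), that of the upstream genes turned to 0.04 (against -0.22) and the downstream difference became 0.27. The shared change was smaller in R1R2_KO, at -0.12 at 20 to 50 kb, against -0.37 in R2R3_KO. Differences in specific values at such distances, that of the cluster among them, therefore include the difference in the shared change taken out. In this class the shared change was -0.19 in R1R2_KO library 1, against -0.06 and -0.11 in libraries 2 and 3.

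**Figure D5:**
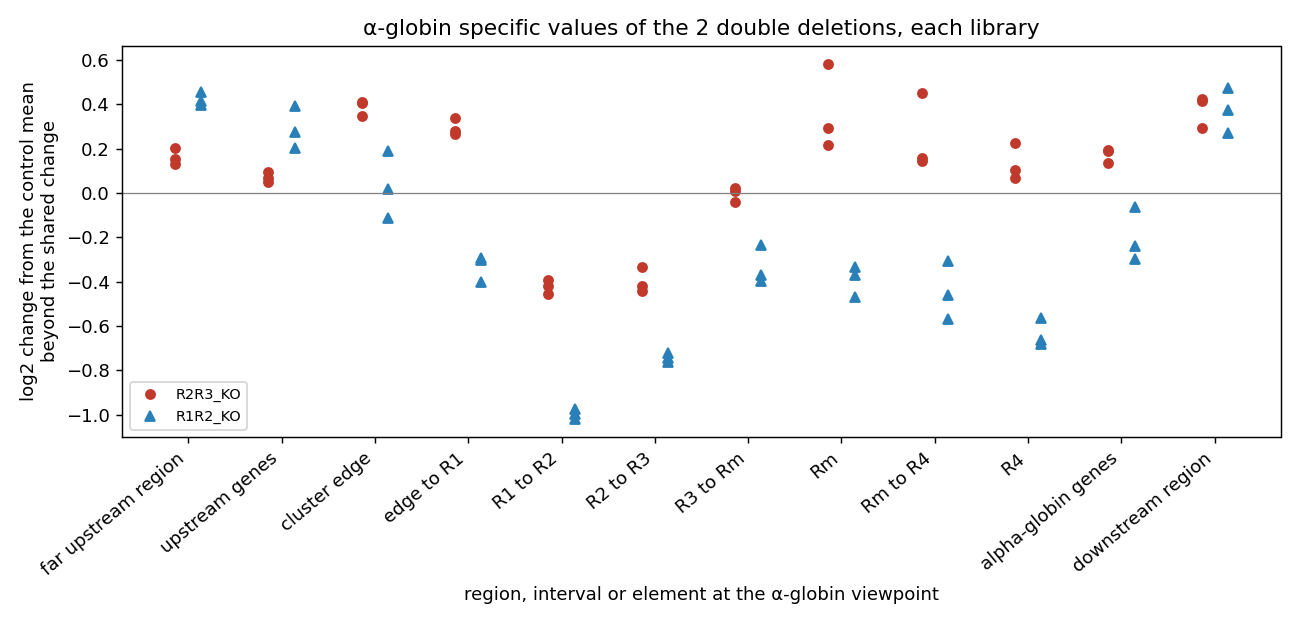
Specific log2 values at the α-globin viewpoint for each library of the 2 double deletions (red circles R2R3_KO, blue triangles R1R2_KO), with 0 at the control mean and R1 left out, since R1R2_KO lacks it. R2R3_KO lies above R1R2_KO in each stretch from the cluster edge to the α-globin genes, by 0.76 at Rm and 0.77 at R4, below it far upstream and among the upstream genes, and level with it downstream.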

How the data were processed

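For each viewpoint the authors deposited 1 table of raw counts of reads on DpnII fragments, not scaled to depth. Trim Galore, Bowtie and the build mm9 are named, per the submitters' processing notes, without versions. 7 columns of each table match no sample and were not used. The members, regions and lists were chosen with earlier results of these data known.

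Viewpoints were taken as gaps of at least 1500 bp in the tables. Library size was chromosome reads over 2 kb from them. Region windows are approximate mm9 windows, snapped to fragments. Deleted blocks are fragments under 50% of the other single deletions in the single deletion of that element. Region sums, and fragments within 500 kb with at least 60 reads over 6 libraries, were tested with edgeR 4.0.16 in R 4.3.3 (quasi-likelihood, Benjamini-Hochberg at 0.05). For specific values the mean Hbb and Slc25a37 change of each distance class and library entered the offset. Standard errors are the log2 change over the square root of F. Exact permutation tests are two-sided. Alternatives used limma 3.58.1 and DESeq2 1.42.0. The steps were tested on simulated data. Motif shares use the first listed promoter of each gene. Regions, elements, block and flank fragments, the 10 lowest and highest fragments at Hba and the 3 at Hbb and Slc25a37 could be named, and some were. No replicates counted as duplicates: R2R3_KO libraries 1 and 3 gave a chi-square per degree of freedom of 1.00 at Slc25a37 but 1.52 and 1.61 at Hba and Hbb.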

Additional observations from a re-analysis of the deposited data

Results flagged for a closer look

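At 5 of the 14 Hba regions and intervals compared, every R2R3_KO library lay above 0 and every R1R2_KO library below it, each relative to the same controls and after the shared change was taken out. The difference in specific log2 change, R2R3_KO minus R1R2_KO, was 0.375 for the α-globin genes, 0.625 from the cluster edge to R1, 0.755 at Rm, 0.698 from Rm to R4 and 0.771 at R4. The exact permutation p was 0.1 at each, the smallest that 3 against 3 libraries allow, so these differences cannot pass 0.05 in this design. The signs follow from the shared change taken out, which at 20 to 50 kb was -0.37 in R2R3_KO and -0.12 in R1R2_KO. On the plain scale R2R3_KO was lower than control at the α-globin genes (-0.27, edgeR adjusted p = 0.00156). Plain changes were -0.23 at R4, -0.10 from Rm to R4, -0.07 from the edge to R1 and 0.01 at Rm, none of which passed. At R4 the specific values of R2R3_KO and control overlapped. Where 0 lies also depends on the scale: with reads over 500 kb away, R2R3_KO library 3 fell to 0.00 at R4.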

How the results depend on the processing

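The specific falls from R1 to R2 and from R2 to R3 kept their direction and call under every alternative run, as did the plain falls of the enhancer cluster, the Hbb locus control region and the upstream region of Slc25a37 in edgeR and limma. The weak points are the zero of the specific values, set by 2 other viewpoints, the 3 libraries a group, and the counts of fragments. In the lists below the cause of a change was not tested. The specific value of the cluster was -0.0912 and past 0.05 with reads within 500 kb as the scale, 0.00729 with reads of all chromosomes and 0.0244 when matched on contact density. Reads within 500 kb turned the Hbb 5′ side to 0.181, edge to R1 to 0.129 and Rm to R4 to 0.098, and gave 22 Hbb and 8 Slc25a37 fragments. Reads of all chromosomes turned the cluster edge to -0.0203, Rm to -0.0341, and the specific R1 and R3 to Rm to 0.0082 and 0.0423, with 41 Hba fragments. Without the deleted blocks in the scale the cluster edge and Rm turned to -0.0247 and -0.0381, and with 5 kb left out to -0.0231 and -0.037. Reads over 500 kb away, chosen as a scale after seeing the data like the match on density, turned the upstream genes to -0.302, the cluster edge to -0.409, the downstream region to -0.352, Rm to -0.421, the Slc25a37 far side and far upstream regions to -0.039 and -0.0721 and the specific upstream genes to -0.00187. The same scale gave 127 Hba, 125 Hbb and 97 Slc25a37 fragments, and a cluster difference to R1R2_KO of 0.837. With Slc25a37 alone as the shared change the specific upstream genes and R3 to Rm were -0.0916 and 0.00716, and matched on density R3 to Rm was 0.0324.

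All 9 libraries in the fit gave 41 Hba and 22 Hbb fragments, TMM factors 23 at Hbb and 8 at Slc25a37, and no filter on low counts 39, 37 and 19 at Hba, Hbb and Slc25a37 and 12 in the specific fit. DESeq2, with its own scale and adjustment within each viewpoint, gave 36, 6 and 0. There edgeR had 37 at Slc25a37, and 70 fragments at that viewpoint had an unadjusted p under 0.05. Distance classes of 2-fold width gave 47 specific fragments. Leaving out each library gave 35 to 76 Hba, 31 to 90 Hbb, 15 to 49 Slc25a37 and 6 to 37 specific fragments, and moved the cluster edge from -0.0298 to 0.0689, Rm from -0.0586 to 0.0647, the specific R1 from -0.0714 to 0.00443 and the specific R3 to Rm from -0.0349 to 0.0465. Same-numbered libraries of the groups correlated at -0.182 to 0.194 in their deviations, and differently numbered ones at -0.178 to 0.226. No pairing by number was seen, but deviations from means of 3 libraries with few reads per fragment cannot exclude one. A replicate block gave 48, 59 and 33 fragments and 22 in the specific fit, with adjusted p = 0.176 for the upstream genes and 0.0104 for R4 (edgeR), and kept the specific R1 to R2 at -0.422. The shallower R2R3_KO libraries limit what single fragments can show.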
